A study of Mus musculus with 8 samples.

Results

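The wild-type (WT) lung endothelium of mice at postnatal day 15 was described from 4 libraries, out of 8 libraries in the study. The 4 members were taken by their genotype label and not by a measured value, though earlier results of these data were known by then. The study set WT mice against mice in which the complex III subunit QPC of the mitochondrial respiratory chain was deleted in the endothelium, and the 4 libraries of the deletion mice were not used here. All mice were C57BL/6. Tamoxifen, which activates an inducible Cre, was given on postnatal days 0 to 4, lungs were taken on day 15, and cells bearing CD31 on their surface were collected by flow sorting. The treatment text is the same for every sample, so the WT mice appear in the labels as treated too, but the labels do not state whether the WT mice carried a floxed allele or a Cre transgene. They also do not state which promoter drove the Cre, or whether a library came from 1 mouse or from a pool, so the spread between libraries given below may in part be technical.

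Endothelial cells line every blood and lymph vessel. In the lung most of them form the capillary net around the alveoli, which holds general capillary cells, able to divide and repair the net, and aerocytes, large thin cells that face the air across the gas exchange surface. Smaller numbers line arteries, veins and lymph vessels. In the second and later weeks after birth the mouse lung divides its air sacs into alveoli while this capillary net expands and thins. CD31, the product of Pecam1, joins endothelial cells to each other and is also borne by platelets and some leukocytes, so a CD31 sort enriches endothelium without selecting it alone.

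Expression was measured by RNA sequencing of each sorted sample in bulk. The WT libraries held 11918741, 11607842, 6407924 and 11951816 counted reads in WT replicates 1 to 4, so the third was the shallowest. Levels are given as CPM, read counts per gene scaled to the size of each library and adjusted for its composition, with values for the 4 libraries always in the order of WT replicates 1 to 4 and summaries as mean ± SD over these 4 libraries (n = 4). Where the levels of different genes are compared, CPM was divided by the length of the gene's exons in kilobases. In all, 16106 genes had at least 1 count, and 10141 genes, 9935 of them protein-coding, reached 1 CPM in every WT library. The median of these genes was 8.59 CPM per kilobase and their 99th percentile was 290.3 CPM per kilobase. Libraries differed pairwise by more than counting noise, with a chi-square of 39.8 to 74.6 for each degree of freedom, and Pearson's r of log2(CPM + 1) between pairs was 0.826 to 0.898 across 10672 genes, which are not independent replicates. In a bulk sample fewer cells of a type and less RNA per cell cannot be told apart.

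The 6 genes used to mark the cells were high in every library, and their levels stayed close together. Cdh5, which encodes VE-cadherin, the adhesion protein of endothelial junctions, was at 3751, 4419.9, 4061 and 3917 CPM. Pecam1 itself was at 2539.5, 3149, 2806 and 2492 CPM. Calcrl, the receptor that binds adrenomedullin, was at 3601, 3340.4, 4036 and 3593 CPM. WT replicate 2 was the highest library for Cdh5 and Pecam1, and WT replicate 3 for Calcrl. Tek, the angiopoietin receptor TIE2, was at 802, 1117, 901 and 1003 CPM. Gpihbp1, the protein that holds lipoprotein lipase on the capillary surface, was at 349, 447, 352 and 404 CPM, and Ednrb, the endothelin B receptor that marks aerocytes, was at 518, 499.8, 504 and 533 CPM. For Ednrb the libraries almost coincided, while Tek and Gpihbp1 were again highest in WT replicate 2. Per kilobase of exon the means were 961 ± 67.8 for Cdh5, 746 ± 59.1 for Calcrl, 441 ± 48.5 for Pecam1, 203 ± 28.7 for Tek, 152 ± 18.2 for Gpihbp1 and 120.4 ± 3.47 CPM per kilobase for Ednrb. The first 3 of these lay above the 99th percentile of expressed genes. Summed over the 6 genes the level was 11561, 12973, 12659 and 11941 CPM, a coefficient of variation (CV, the SD as a percent of the mean) of 5.27%. Of the 6 genes 0 had a CV over 50%, against 22.6% of all 10672 genes averaging 5 CPM or more, and 3 had a CV under 10%, against 6.84%. The CV falls with level, and all 6 averaged over 100 CPM. Of the 2239 genes averaging 100 CPM or more 1.88% had a CV over 50% and 20.9% a CV under 10%.

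The genes lie apart in the genome, on 6 chromosomes of GRCm38 (mm10). Cdh5 (ENSMUSG00000031871) spans chr8:104101625-104144511, plus strand, and Pecam1 (ENSMUSG00000020717) spans chr11:106654217-106750628, minus strand. Calcrl (ENSMUSG00000059588) spans chr2:84330626-84425411, minus strand, and Tek (ENSMUSG00000006386) spans chr4:94739289-94874976, plus strand. Gpihbp1 (ENSMUSG00000022579) spans chr15:75596628-75599481, plus strand, and Ednrb (ENSMUSG00000022122) spans chr14:103814625-103844402, minus strand. The sequences just before the start sites of Tek and Ednrb are shown because both genes mark the sorted cells and ETS factors, several of which were high in these libraries, bind DNA at a GGAA core. They are the 250 bases upstream of the RefSeq start in GRCm38.p6, written 5′ to 3′ on the strand of the gene, with each GGAA, or TTCC for the same core on the other strand, in capitals. The Tek window is chr4:94739039-94739288 on the plus strand, the Ednrb window is chr14:103843702-103843951 on the minus strand, and neither overlaps an exon annotated in GENCODE. The Ednrb window lies inside the annotated span of the gene, upstream of the RefSeq start, and so in an intron of longer transcripts.
Tek: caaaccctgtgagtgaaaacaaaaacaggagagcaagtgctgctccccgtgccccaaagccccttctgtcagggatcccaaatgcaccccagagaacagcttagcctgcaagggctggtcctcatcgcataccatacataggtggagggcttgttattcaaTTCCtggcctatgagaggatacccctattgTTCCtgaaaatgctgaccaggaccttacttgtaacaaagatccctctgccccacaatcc
Ednrb: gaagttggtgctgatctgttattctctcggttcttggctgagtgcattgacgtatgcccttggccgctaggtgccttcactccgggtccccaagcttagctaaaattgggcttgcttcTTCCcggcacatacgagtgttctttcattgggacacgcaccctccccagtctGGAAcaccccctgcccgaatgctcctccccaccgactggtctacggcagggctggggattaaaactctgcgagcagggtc
Each window holds 2 such cores. Of 32851 windows of the same length in the RefSeq set, 93.4% hold at least 1 core and 76.8% at least 2, with a median of 3, so a match is a description of these letters only. Of the 6 marker genes 3 were matched in the RefSeq set. Calcrl, also matched, is not shown. Its window holds 3 such cores, as at least 54.7% of windows do or exceed, and 145 of its 250 bases lie in annotated exons.

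**Figure D1:**
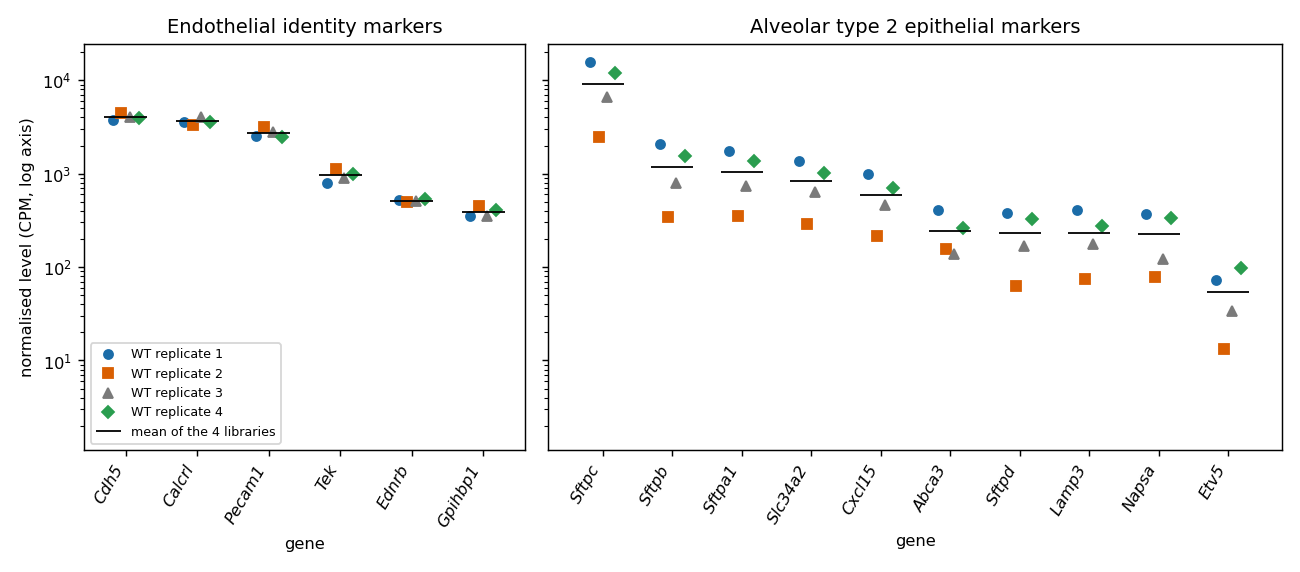
Normalised level in each of the 4 WT libraries (symbols) and their mean (line) for the 6 endothelial identity markers on the left and for 10 markers of alveolar type 2 epithelium on the right, in CPM on a log axis. The endothelial markers of the 4 libraries lie close together (Cdh5 3751, 4419.9, 4061 and 3917 CPM), whereas the epithelial markers are spread widely with WT replicate 2 low (Sftpc 15504, 2472, 6578 and 11955 CPM).

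Among the 25 genes with the highest mean CPM, genes of endothelial surface, matrix and signalling stood beside a surfactant gene and mitochondrial transcripts. Sftpc, which encodes surfactant protein C of alveolar type 2 epithelium and is not an endothelial gene, had the highest mean of all, at 15504, 2472, 6578 and 11955 CPM. Next came mt-Co1, a cytochrome c oxidase subunit encoded in mitochondrial DNA, at 8979, 7151, 6879 and 8931 CPM. WT replicate 2 held the least Sftpc and WT replicate 1 the most, while mt-Co1 had a CV of 14.1%. The translation factor gene Eef1a1 was at 6546, 5604, 5203 and 6446 CPM and Eef2, another elongation factor, averaged 2715 ± 345 CPM. Endothelial genes in this group included Epas1, the hypoxia-inducible factor HIF-2α, at 3437, 5932, 4339 and 3841 CPM. Aqp1, a water channel of capillary endothelium, was at 3388, 3649, 3601 and 3490.0 CPM, and its CV of 3.31% was the lowest of the 25. Eln, which encodes elastin and is made by several lung cell types, averaged 4304 ± 583 CPM. Adgrf5, an adhesion receptor of lung endothelium and epithelium, averaged 3005 ± 586 CPM, and Scn7a, a sodium channel gene, averaged 2820.1 ± 319.9 CPM. Of 80 genes checked (the 6 markers, these 25 and the sets of related genes below), 4 had 1 library apart from the other 3, namely Vwf, Col4a1, Ramp3 and Pdk3, against 5.29% of all 10672 genes. Ace, Cd36, Cd93, Sparc, Vwf, Cldn5, Col4a1 and Col4a2 were also among the 25 and are described with their groups.

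Ranked per kilobase the order changed. Sftpc stood at 8827 ± 5568 CPM per kilobase and mt-Atp8, which shares part of its length with mt-Atp6, at 6648 ± 1422. The mitochondrial ribosomal RNA mt-Rnr2 averaged 2138 ± 461, and the protein genes of mitochondrial DNA are described with the other energy genes. Cldn5, the claudin of endothelial tight junctions, led the nuclear genes known from endothelium at 1885 ± 246 CPM per kilobase, followed by Aqp1 at 1344 ± 44.4 and Cdh5. Gm23935, a short gene annotated as a miRNA, ranked first per kilobase at 8932 ± 6237, and it moved with Gm42418, annotated as a lincRNA on chromosome 17, and with Lars2, which encodes mitochondrial leucyl-tRNA synthetase. Gm42418 was at 6306, 1609.8, 5669 and 11838 CPM and Lars2 at 3401, 857, 2850.2 and 5829.8 CPM, so both were lowest in WT replicate 2 and highest in WT replicate 4. The ratio of the 2 genes was nearly constant, at 1.85, 1.88, 1.99 and 2.03, a CV of 4.41%, whereas each gene had a CV above 60%. The source of this shared movement was not tested.

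Genes expressed by the endothelium of most vessels were all present. All 20 pan-endothelial genes reached 1 CPM in every library, their median level was 251 CPM per kilobase, and 0 of them had a CV over 50%, against 22.6% of all genes averaging 5 CPM or more and 1.88% of those averaging 100 CPM or more, as each of these did. Tie1, the partner receptor of TIE2, was at 1644, 1764, 1590.3 and 1670.3 CPM, with WT replicate 3 lowest and WT replicate 2 highest by a small margin. Cav1, the main coat protein of caveolae, averaged 655 ± 52.1 CPM per kilobase, Eng, the co-receptor endoglin, 309.9 ± 28.3, and Clec14a, a lectin-like surface protein of endothelium, 302 ± 36.4. Esam, an adhesion molecule of endothelial junctions, averaged 276 ± 13.6 CPM per kilobase and Egfl7, a secreted endothelial factor, 262 ± 49.9. The lowest member per kilobase was Flt1, the VEGF receptor 1, at 48.7 ± 7.88, still above the median of expressed genes. The summed level of the list was 20124, 21348, 19486 and 19784 CPM, with a CV of 4.05%.

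The transcription factors known from endothelial identity were led by Epas1 at 785 ± 196 CPM per kilobase. Foxf1, a forkhead factor of the lung mesenchyme and its capillaries, followed at 458 ± 85.2 and was at 1211, 1286, 1107 and 817 CPM, lowest in WT replicate 4. Klf2 and Klf4, factors that respond to blood flow, averaged 362 ± 46.9 and 169 ± 28.4 CPM per kilobase. The 3 SOXF factors differed in a fixed order: Sox18 averaged 251 ± 49.8, Sox7 122 ± 13.5 and Sox17, the arterial member, 62.7 ± 4.01 CPM per kilobase. Sox18 lay above Sox7 in 4 of 4 libraries. ETS factors were present together: Elk3 averaged 109, Ets1 107, Erg 91.8, Ets2 84.3 and Fli1 30.2 CPM per kilobase. Foxc2, a factor of lymph vessel valves, was the lowest of the 26 factors, at 5.84, 8.78, 0 and 3.22 CPM. It fell to 0 counts in WT replicate 3, where a count of 3 would be 0.455 CPM. In all, 25 of 26 factors reached 1 CPM in every library. Of the 25 averaging 5 CPM or more 0 had a CV over 50%, against 22.6% of all genes of that level. The CV falls with level, and among genes averaging 100 CPM or more the share was 1.88%.

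Markers of the 2 capillary states were both high, and general capillary markers had the higher median per kilobase. The 12 general capillary markers had a median of 167 CPM per kilobase and the 12 aerocyte markers 84.3. Since each list holds genes of different absolute output, these medians do not give shares of cells. Of the general capillary markers, Plvap, which forms the diaphragm across endothelial pores, was at 1259, 1987, 1639.7 and 1573 CPM. Aplnr, the apelin receptor, was at 739.8, 1120.5, 706 and 848 CPM, and Kit, the stem cell factor receptor, at 534, 561, 608 and 522 CPM. Plvap and Aplnr were highest in WT replicate 2, whereas Kit differed by a CV of 6.81%. Cd93, a surface glycoprotein, averaged 447 ± 40.3 CPM per kilobase, Adgre5, the adhesion receptor CD97, 238 ± 19.4, Sema3c, a secreted guidance signal, 199.6 ± 19.2, and Ptprb, the phosphatase that holds TIE2 in check, 182 ± 47.04. The weakest member was Glp1r, the receptor for the hormone GLP-1, at 74.4, 158, 74.7 and 126 CPM, with WT replicates 2 and 4 above the others.

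Among aerocyte markers Car4, a membrane-bound carbonic anhydrase that speeds carbon dioxide exchange, was at 362, 267, 311 and 340.4 CPM. Apln, which encodes the ligand apelin, was at 292, 228, 295 and 241 CPM, and Tbx2, a T-box factor, at 354, 286, 293 and 298 CPM. All 3 were lowest in WT replicate 2, by small margins for Apln and Tbx2. Kdr and Cd34, which other lung endothelium also expresses, averaged 174 ± 24.6 and 184 ± 19.2 CPM per kilobase, and Prx, the cytoskeletal protein periaxin, 155 ± 19.9. Nckap5 was the lowest member at 12.99 ± 6.43 CPM per kilobase and the most spread, with 100.3, 267, 158 and 104 CPM. The summed levels were 10677, 14286, 12433 and 11740.0 CPM for general capillary markers (CV 12.4%) and 6211, 6026, 5717 and 5172 CPM for aerocyte markers (CV 7.86%). WT replicate 2 was the highest library in the first list and WT replicate 1 in the second. Cells of other kinds also moved between these libraries, and their values are given below. Their part in this difference was not tested.

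Arterial markers were present at a lower median, 80.5 CPM per kilobase over 12 genes, and 11 of them reached 1 CPM in every library. Gja4, the gap junction protein connexin 37, was at 460.1, 378, 357 and 341 CPM, and its arterial relative Gja5, connexin 40, at 89.6, 45.8, 139.7 and 145 CPM. Gja4 was highest in WT replicate 1, whereas Gja5 was low in WT replicate 2 and high in WT replicates 3 and 4. Efnb2, the arterial ephrin, averaged 115 ± 14.3 CPM per kilobase, Cxcl12, a chemokine, 109 ± 23.9, Mgp, an inhibitor of calcification that mesenchyme also makes, 125 ± 19.9, and Fbln5, an elastic fibre protein, 89.04 ± 11.8. Dkk2, a secreted Wnt antagonist, was barely detected, at 1.1004, 0.261, 3.18 and 1.61 CPM. Of 10 venous markers 9 reached 1 CPM in every library, with a median of 20.1 CPM per kilobase. Vwf, the clotting protein von Willebrand factor, was at 3152, 4530.2, 3369 and 3375 CPM, with WT replicate 2 apart from the other 3. Ephb4, the venous receptor for ephrin B2, was at 798, 854, 835 and 862 CPM with a CV of 3.39%, and Slc6a2, the noradrenaline transporter, averaged 67.7 ± 8.01 CPM per kilobase. Prss23, a serine protease, averaged 52.5 ± 12.2 CPM per kilobase, Car8, a relative of the carbonic anhydrases, 30.4 ± 7.43, and Nr2f2, the factor of venous identity, 9.87 ± 0.904. Ackr1, the scavenger receptor of venules, had 0 counts in all 4 libraries, where 3 counts would be 0.254 to 0.455 CPM.

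Lymphatic genes were detected in every library, and the CV of their sum, 31.8%, was above that of the general capillary, aerocyte, arterial and venous lists (at most 13.2%). Prox1, the master factor of lymphatic endothelium, was at 33.9, 49.8, 12.4 and 35.97 CPM and Flt4, the VEGF receptor 3, at 236, 399, 349.9 and 303 CPM. Lyve1, a hyaluronan receptor of lymph vessels that some lung blood endothelium also carries, was at 593, 1619.5, 807 and 935 CPM. WT replicate 2 was highest for all 3 genes, and WT replicate 3 was lowest for Prox1. Ccl21a, the chemokine of lymph vessels, averaged 85.2 ± 15.7 CPM per kilobase, Mmrn1, multimerin 1, 31.8 ± 6.23, and Reln, reelin, 2.69 ± 0.989. Ccl21a has near-identical copies, so its reads may have been lost or shared. Pdpn, podoplanin, which alveolar type 1 cells also make, was at 10.9, 8.87, 29.2 and 13.5 CPM. Per kilobase, Lyve1 averaged 339 ± 152 and Prox1 3.94 ± 1.84. The summed list was 1201, 2442, 1460.3 and 1632 CPM, with Lyve1 its largest part in each library. The spread of the sum thus rests largely on Lyve1 and does not measure lymphatic cells alone.

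**Figure D2:**
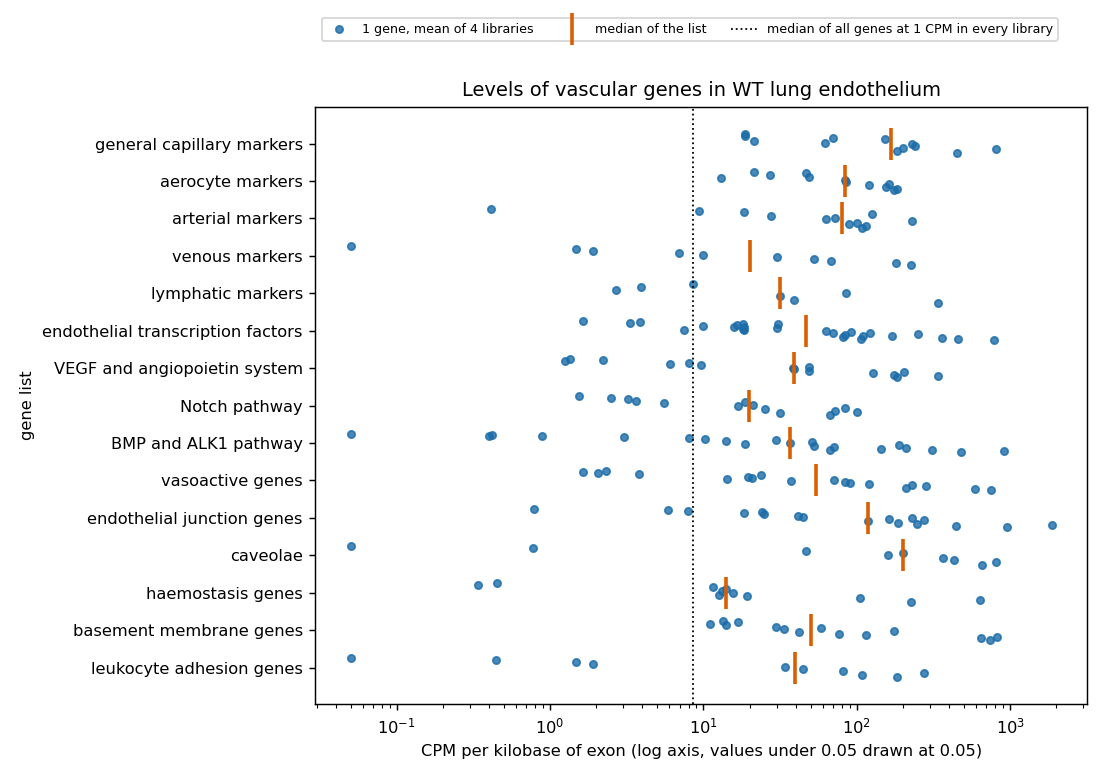
Mean level over the 4 WT libraries of each gene (point) in 15 lists of vascular genes, in CPM per kilobase of exon on a log axis (the lowest values are drawn at the left edge), with the median of each list (orange bar) and the median of all genes at 1 CPM in every library (dotted line, 8.59). The medians of all 15 lists lie to the right of that line, and caveolae (202), general capillary (167) and junction genes (118) have the highest.

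Of the receptors of vessel growth, Tie1, Tek, Kdr and Nrp1 stood above the ligands per kilobase in mean level, but Flt1 and Flt4 did not. Of the VEGF receptors Kdr, VEGF receptor 2, was at 1619, 1818, 1559 and 1281 CPM, Flt1 at 533, 747, 747 and 607 CPM and Flt4 at the levels given above. Per kilobase Kdr was 3.56 times Flt1, or 2.77 times when lengths were taken from the longest transcript. With lengths from all exons Kdr lay above Flt1 in 4 of 4 libraries. Flt1 averaged 48.7 ± 7.88 and Flt4 39.1 ± 8.401 CPM per kilobase, near Vegfc at 48.6 ± 8.82 and Vegfa at 38.4 ± 10.8. The order of receptors and ligands was not recomputed with the longest transcript, so the place of Flt1 and Flt4 among them is uncertain. Tie1 and Tek averaged 339 ± 14.8 and 203 ± 28.7 CPM per kilobase. Nrp1, a co-receptor of VEGF, averaged 127 ± 5.33 and Nrp2, its lymphatic relative, 9.66 ± 1.68. Among ligands Vegfc, which acts on lymph vessels, was at 91.7, 116, 126 and 143 CPM, and Vegfa, the main signal for blood vessel growth, at 190.2, 196, 175 and 96.5 CPM. Vegfa was lowest in WT replicate 4 and Vegfc lowest in WT replicate 1. Angpt2, the antagonist ligand of TIE2, averaged 6.05 ± 3.25 CPM per kilobase, Vegfb 8.02 ± 4.75, Vegfd 2.23 ± 0.971, Pgf, placental growth factor, 1.34 ± 1.28, and Angpt1, the activating ligand that mural cells make, 1.26 ± 1.08.

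Of 14 Notch pathway genes 14 reached 1 CPM in every library. Dll4, the endothelial ligand, led them per kilobase at 100.05 ± 17.7 and was at 366, 332, 358 and 485 CPM, highest in WT replicate 4. Of the receptors Notch4 was at 403, 621, 529 and 607 CPM and Notch1 at 369.6, 590.2, 445 and 385 CPM, and per kilobase Notch4 was 2.13 times Notch1. Notch2 averaged 3.64 ± 0.406 CPM per kilobase. Notch3, the receptor of pericytes and smooth muscle, was at 21.8, 1.22, 19.1 and 62.6 CPM and so nearly absent from WT replicate 2. Among targets Hes1 averaged 83.4 ± 22.99 CPM per kilobase, Hey1 71.9 ± 18.2 and Hey2 1.54 ± 0.154. Jag2 and Jag1, the other family of ligands, averaged 25.3 ± 4.18 and 16.8 ± 4.11. The BMP receptor complex of endothelium was abundant. Acvrl1, the receptor ALK1, was at 1986, 2251, 1899.8 and 2080.1 CPM and its co-receptor Eng at 1187, 1409.8, 1152 and 1269 CPM. Bmpr2, the type II receptor, was at 989.9, 1543, 1145 and 1138 CPM, and WT replicate 2 was the highest library for all 3 receptors. Tmem100, a membrane protein switched on by ALK1 signals, averaged 910.4 ± 52.4 CPM per kilobase. Id3 and Id1, targets of BMP signalling, averaged 210.2 ± 23.9 and 189 ± 37.2, and the inhibitor Smad6 averaged 143 ± 3.63 with a CV of 2.53%. Of the ligands Bmp6 averaged 71.3 ± 10.4 CPM per kilobase, and Gdf2, the ALK1 ligand BMP9 made in liver, had 0 counts in all 4 libraries. Smad1, Smad5 and Smad9, the signal carriers, averaged 10.3 ± 2.14, 18.7 ± 4.46 and 0.397 ± 0.503.

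Genes that set vessel tone ranged widely in level. The 18 genes had a median of 53.95 CPM per kilobase, and 15 reached 1 CPM in every library. Ace, the angiotensin-converting enzyme, was at 2812, 3483, 2909.6 and 3255 CPM, and WT replicates 2 and 4 were above the other 2. Calcrl needs a RAMP partner to bind its ligand. Ramp2, the partner that makes an adrenomedullin receptor, was at 845, 873, 939 and 1079.9 CPM, and Ramp3 was at 17.7, 37.6, 37.7 and 37.9 CPM. Ramp3 was lower in WT replicate 1 than in the other 3 libraries, which agreed closely. Per kilobase Ramp2 was 11.9 times Ramp3, or 25.7 times when lengths were taken from the longest transcript. Ramp1, the partner for CGRP, averaged 1.65 ± 1.93 CPM per kilobase, and Adm, the ligand adrenomedullin, 2.32 ± 2.36. Of the endothelin genes Ednrb averaged 120.4 ± 3.47 CPM per kilobase and Ednra, the receptor of smooth muscle, 3.81 ± 2.77. Ece1, the enzyme that activates endothelin, averaged 209 ± 48.2 and Edn1, its ligand, 70.7 ± 23.95. Edn1 was at 109, 105, 191 and 199.7 CPM, higher in WT replicates 3 and 4 than in 1 and 2. Nos3, endothelial nitric oxide synthase, averaged 37.2 ± 5.63 CPM per kilobase. Npr1, a receptor for atrial natriuretic peptide, averaged 90.2 ± 15.9, and Npr3, the clearance receptor, was at 64.9, 265, 92.9 and 109 CPM, high in WT replicate 2. Ptgis, which makes prostacyclin, averaged 19.4 ± 3.302 CPM per kilobase, Ptgs1, a cyclooxygenase, 20.8 ± 7.67, and its inducible relative Ptgs2, 2.05 ± 0.837.

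Structural genes of the vessel wall included some of the most abundant, and the 17 junction genes had a median of 118 CPM per kilobase. Of these 16 reached 1 CPM in every library. Of the 16 averaging 5 CPM or more 0 had a CV over 50%, against 22.6% of all genes of that level. Among genes averaging 100 CPM or more that share was 1.88%. A CV under 10% was found for 5 of the 16, against 6.84%, or 20.9% of genes averaging 100 CPM or more. Behind Cldn5, Cdh5 and Pecam1 stood Esam, Ctnnb1, the linker β-catenin, at 248 ± 12.98 CPM per kilobase, and Gja4 at 228 ± 31.4. Cgn, cingulin, was the lowest, at 8.296, 3.91, 0 and 6.601 CPM. In the caveolae list Cavin2 averaged 430.2 ± 25.7 CPM per kilobase, Cavin1 363 ± 55.1 and Cav2 202 ± 11.2, and Ehd2, which anchors caveolae, 159 ± 17.3. The muscle forms were missing or nearly so: Cav3 had 0 counts in all 4 libraries, and Cavin4 was detected in WT replicate 1 only, at 1.59 CPM as a mean. Of the 17 vascular lists the basement membrane list had the lowest CV of its sum, at 16830.0, 16903, 16720.0 and 16790.0 CPM, a CV of 0.455%. Its 14 members taken singly had a median CV of 12.5%, so the even sum does not mean that each gene was even. Collagen IV, the network of the basement membrane, led the list in CPM: Col4a1 was at 5649, 5645, 5589.7 and 5127 CPM and Col4a2 at 4349, 4459, 4084 and 4144 CPM. Col4a1 was slightly lower in WT replicate 4 than in the others. Sparc, a collagen-binding protein, averaged 824 ± 94.1 CPM per kilobase and its relative Sparcl1 175 ± 25.95. Nid1, nidogen 1, averaged 114 ± 19.6, and Lamc1, a laminin chain, 76.4 ± 5.61.

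Of 11 haemostasis genes Thbd, thrombomodulin, an anticoagulant of the endothelial surface, stood highest at 640.2 ± 21.1 CPM per kilobase, with 2345, 2339, 2349 and 2501 CPM and a CV of 3.3005%. Vwf averaged 225 ± 38.9 CPM per kilobase, Anxa2, a receptor for plasmin formation, 105 ± 16.5, and Tfpi, an inhibitor of tissue factor, 19.3 ± 5.14. F3, tissue factor itself, was counted only in WT replicate 4, at 0, 0, 0 and 4.57 CPM, and F8, clotting factor VIII, averaged 0.337 ± 0.299 CPM per kilobase. Procr, the endothelial protein C receptor, was at 12.02, 37.2, 37.3 and 28.3 CPM, low in WT replicate 1. For leukocyte capture, Icam2, a constitutive ligand of leukocyte integrins, averaged 276 ± 48.4 CPM per kilobase and Ackr3, a chemokine scavenger, 81.3 ± 14.04. Jam2, a junction protein that leukocytes bind, averaged 44.7 ± 5.995. The inducible receptors were lower: Icam1 averaged 33.8 ± 5.16, Vcam1 1.902 ± 0.901, Selp, P-selectin, 1.47 ± 1.26 and Sele, E-selectin, 0.442 ± 0.514 CPM per kilobase. Madcam1, the receptor of gut venules, had 0 counts in all 4 libraries.

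Genes of glucose breakdown were modest in level, and for hexokinase, lactate dehydrogenase and aldolase 1 member held most of the family's signal. The 32 glycolysis genes had a median of 2.91 CPM per kilobase, below the 8.59 of all expressed genes. This list includes tissue-restricted forms, of which Pfkfb1 and Pklr had 0 counts in all 4 libraries. Slc2a1, the glucose carrier GLUT1, was at 16.9, 5.999, 12.7 and 19.3 CPM, low in WT replicate 2, and averaged 3.92 ± 1.66 CPM per kilobase. The carriers Slc2a3 and Slc2a4 averaged 0.723 ± 0.254 and 0.272 ± 0.339. Hk1 was the main hexokinase, at 130.2, 123, 174 and 102 CPM, and Hk2 was at 1.78, 1.39, 5.001 and 0 CPM. Hk1 made up 97.4 ± 2.26% of the hexokinase signal per kilobase. Hk3 was counted in WT replicate 1 only. Among phosphofructokinases Pfkl averaged 13.7 ± 2.902 CPM per kilobase, Pfkm 12.3 ± 1.12 and Pfkp 3.39 ± 0.687. Pfkl lay above Pfkm in 3 of 4 libraries, a difference within their spread. The ratio of their means was 1.12, or 1.73 when lengths were taken from the longest transcript, so their order in level is uncertain. Pfkfb3, the enzyme that makes the activator of phosphofructokinase and is known from sprouting vessels, was at 17.5, 29.04, 51.5 and 28.5 CPM, and Pfkfb4 at 18.1, 2.695, 7.12 and 17.8 CPM. WT replicate 3 was highest for Pfkfb3, and WT replicates 1 and 4 for Pfkfb4. Pfkfb2 averaged 1.05 ± 0.393 CPM per kilobase.

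Further down the pathway Aldoa, aldolase A, averaged 72.4 ± 24.2 CPM per kilobase, Gpi1, the isomerase, 36.8 ± 8.06, Gapdh 40.4 ± 2.17, Pgk1 20.6 ± 2.73, Pgam1, the mutase, 54.3 ± 7.97 and Pkm, pyruvate kinase, 74.9 ± 12.3. Several of these genes have processed copies elsewhere in the genome, so their reads may have been lost. Aldoc was at 0, 3.39, 0 and 5.42 CPM. Eno1, enolase 1, averaged 20.5 ± 4.99 CPM per kilobase, while Eno2 and Eno3 averaged 0.0212 and 0.317 CPM. Ldha, the lactate dehydrogenase that favours lactate, was at 342, 203, 202 and 283 CPM and Ldhb at 16.6, 4.52, 9.85 and 38.3 CPM. Ldha was 88.7 ± 7.61% of their signal per kilobase, and Ldhb was highest in WT replicate 4 and lowest in WT replicate 2. The lactate carriers Slc16a1 and Slc16a3 averaged 1.88 ± 1.21 and 0.736 ± 0.561 CPM per kilobase. At the entry of pyruvate to mitochondria Pdha1, a subunit of pyruvate dehydrogenase, averaged 29.3 ± 4.71 CPM per kilobase and the carrier subunit Mpc1 18.9 ± 9.09. Its partner subunits Pdhb, Dlat and Pdhx averaged 17.4 ± 4.68, 10.7 ± 2.02 and 7.26 ± 2.04. Of the kinases that switch the dehydrogenase off, Pdk2 was at 29.5, 45.2, 49.6 and 42.6 CPM, Pdk1 at 24.1, 19.5, 29.1 and 30.1 CPM and Pdk3 at 2.45, 13.8, 13.8 and 11.9 CPM. Pdk4 was counted in WT replicates 2 and 3 only, at 0, 7.82, 18.03 and 0 CPM, and Pdk3 was low in WT replicate 1. The glucose side path of the pentose phosphates was present: Taldo1, transaldolase, averaged 75.1 ± 10.6, Tkt, transketolase, 22.1 ± 4.87 and G6pdx, its first enzyme, 8.94 ± 1.59 CPM per kilobase. Pgls, Pgd and Rpe, which act between them, averaged 12.95 ± 4.32, 12.7 ± 4.06 and 11.2 ± 2.83.

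**Figure D3:**
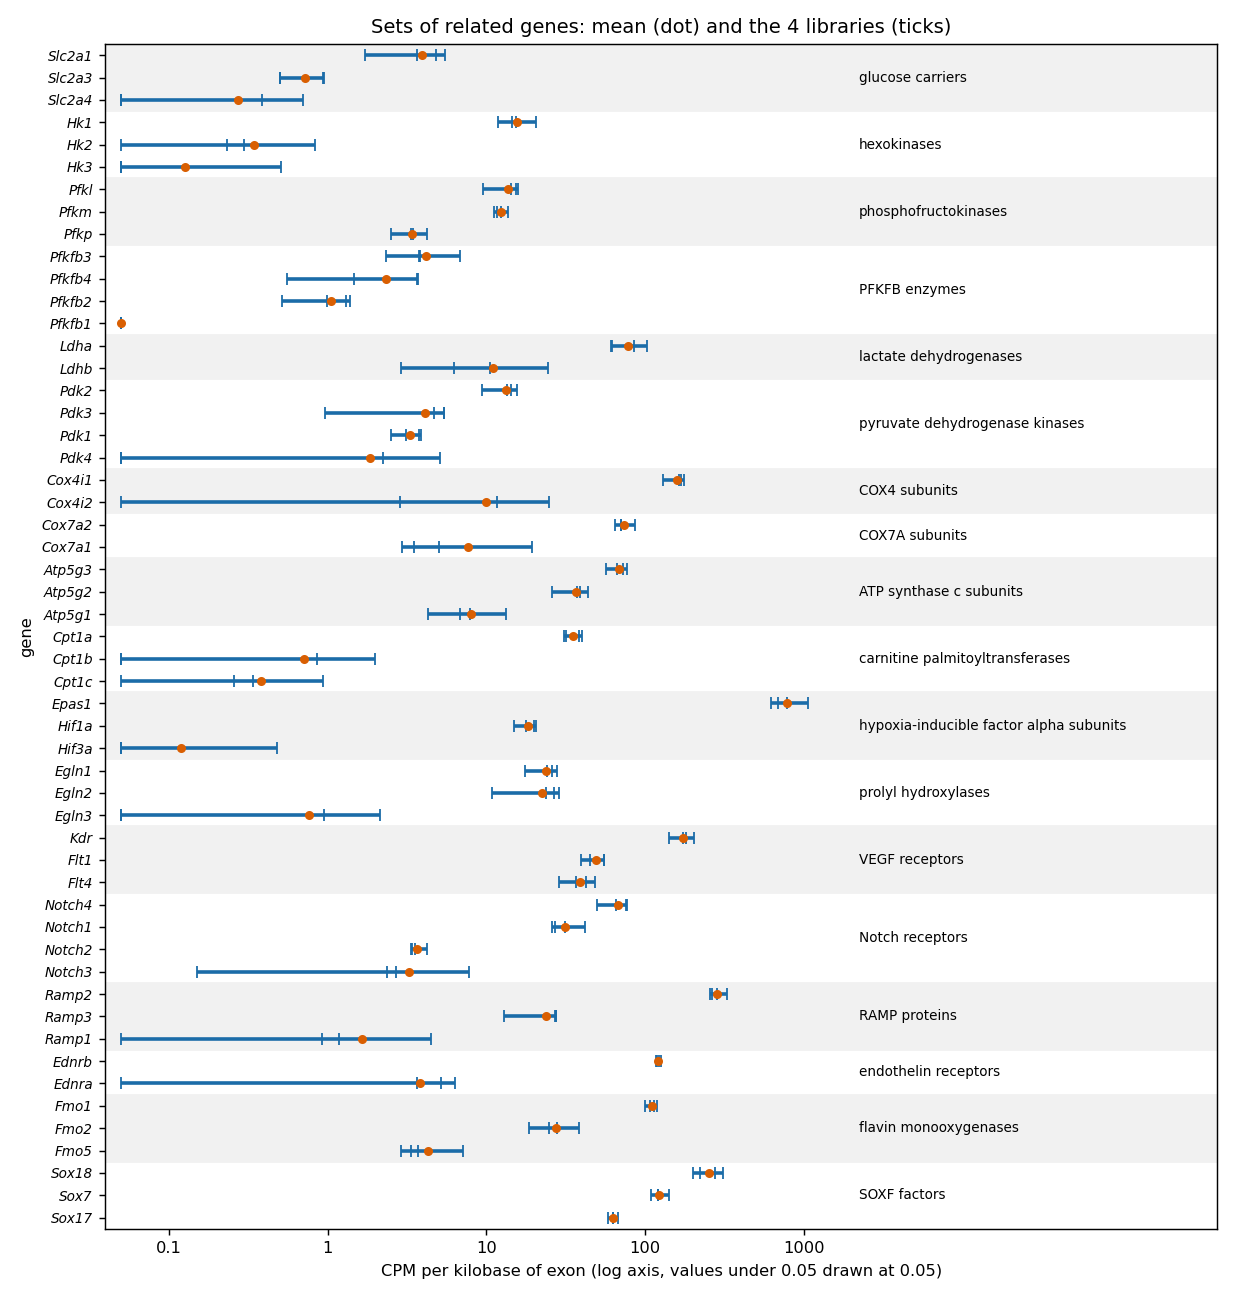
Level of members of 18 sets of related genes in CPM per kilobase of exon on a log axis, with the mean of the 4 WT libraries (orange dot), each library (blue tick) and the range (blue line). Hk1, Ldha, Cox4i1, Cpt1a, Epas1, Ramp2, Ednrb and Fmo1 lie above every other member of their set in each of the 4 libraries, whereas Pfkl and Pfkm, and Egln1 and Egln2, overlap.

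The lists of mitochondrial energy genes had higher medians than the glycolysis list, of which 20 of 32 members reached 1 CPM in every library. The main glycolytic genes Gapdh, Pgam1, Aldoa, Pkm and Ldha, from 40.4 to 77.8 CPM per kilobase, lay within or above the range of those medians, given next. The 18 citric acid cycle genes all reached 1 CPM in every library, with a median of 27.5 CPM per kilobase. Idh2, the NADP-dependent isocitrate dehydrogenase, was at 174, 99.02, 170.2 and 114 CPM. Mdh2, malate dehydrogenase, averaged 46.4 ± 3.55 CPM per kilobase, Cs, citrate synthase, 28.004 ± 3.97 and Ogdh, of the oxoglutarate dehydrogenase complex, 43.2 ± 7.81. Dld, the shared dehydrogenase subunit, was the most spread of the list, at 104, 72.6, 169.6 and 52.05 CPM, highest in WT replicate 3. The nuclear genes of complexes I, II, III, IV and V had medians of 34.3, 44.8, 52.5, 34.9 and 52.9 CPM per kilobase. In complex II, which is also succinate dehydrogenase of the cycle, Sdhd averaged 63.8 ± 14.4, Sdhb 45.1 ± 11.1, Sdha 44.5 ± 5.099 and Sdhc 26.2 ± 5.197 CPM per kilobase. All 36 complex I genes were above 1 CPM in every library, led by Ndufb11 at 134 ± 23.1 CPM per kilobase, Ndufa8 at 112 ± 27.97, Ndufc2 at 93.97 ± 13.7, Ndufa2 at 90.4 ± 23.99 and Ndufa1 at 73.2 ± 25.1. Ndufb9 averaged 55.7 ± 3.07. Their sum was 2218, 1625, 1820.2 and 2079 CPM, with WT replicate 1 highest and WT replicate 2 lowest. Complex III, which the study acts on, was expressed in full, with 9 of 9 nuclear genes above 1 CPM in every library and a sum of 747, 629, 647 and 779 CPM. Uqcrq, taken here to be the gene of QPC, was at 26.6, 24.7, 27.1 and 32.4 CPM, and its 15.1 ± 1.81 CPM per kilobase was the lowest of the list. The core proteins Uqcrc1 and Uqcrc2 averaged 39.1 ± 4.01 and 51.02 ± 10.2, Uqcrfs1, the Rieske iron-sulfur protein, 52.5 ± 14.9, and Cyc1, cytochrome c1, 30.04 ± 10.8 CPM per kilobase. The other small subunits, Uqcr11, Uqcr10, Uqcrb and Uqcrh, averaged 81.9 ± 30.3, 80.6 ± 36.3, 75.5 ± 19.2 and 63.5 ± 7.04, all above Uqcrq. The place of Uqcrq in this order depends on the exon length used. It was not recomputed with lengths from the longest transcript and is uncertain.

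Several subunits of cytochrome c oxidase (complex IV) exist in tissue forms, and the WT cells held the widely expressed ones. Cox4i1 was at 272, 202, 259.9 and 251 CPM and Cox4i2, a form of pericytes and smooth muscle in lung, at 19.6, 2.26, 0 and 9.22 CPM. Cox6a1 averaged 253 ± 43.8 CPM per kilobase, Cox7a2 73.1 ± 9.397 and Cox8a 178 ± 58.6. Cox7a2l, which helps join complexes III and IV, averaged 135 ± 36.7 and Cox6b1 128 ± 25.7. Their muscle forms were low: Cox7a1 was at 1.86, 1.56, 10.3 and 2.71 CPM, Cox6a2 was counted in WT replicate 1 only at 2.96, 0, 0 and 0 CPM, and Cox8b had 0 counts in all 4 libraries. Ndufa4 averaged 79.1 ± 22.01 CPM per kilobase, and Ndufa4l2, its hypoxia-induced relative known from pericytes, was at 12.4, 0, 0 and 6.86 CPM. Both Cox4i2 and Ndufa4l2 were higher in WT replicates 1 and 4 than in 2 and 3. The summed pericyte markers, a list that includes Cox4i2, were 376, 62.2, 271 and 430.1 CPM. In WT replicate 3 their sum stood well above WT replicate 2, while Cox4i2 and Ndufa4l2 were at 0. The part of pericytes in this was not tested. Of ATP synthase genes Atp5a1 and Atp5b, the subunits of its catalytic head, averaged 177 ± 21.02 and 166 ± 11.3 CPM per kilobase. Of the 3 genes for its ring subunit c, Atp5g3 averaged 67.96 ± 8.67, Atp5g2 36.5 ± 7.48 and Atp5g1 8.04 ± 3.75, and Atp5g3 led in 4 of 4 libraries.

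The protein genes of mitochondrial DNA took 2.83%, 2.30%, 2.23% and 2.73% of all counts. Besides mt-Co1, mt-Nd1, a complex I subunit, averaged 4563 ± 498 CPM per kilobase, mt-Cytb, the complex III subunit made in mitochondria, 4383 ± 614, and mt-Nd2 2201 ± 237. mt-Nd6 and mt-Nd5, neighbours on opposite strands whose annotated ends overlap by a few bases, averaged 1233 ± 212 and 1119 ± 149. Without strand, reads in that overlap cannot be told apart, and opposite-strand reads elsewhere over mt-Nd6 would count as mt-Nd6. The strand setting is not known, so the level of mt-Nd6 is uncertain. Values of 5 genes were far below those given above: mt-Atp6 averaged 24.6 ± 5.06 CPM, mt-Co2 13.5 ± 4.57, mt-Nd3 3.93 ± 3.22, mt-Nd4l 3.09 ± 2.05 and mt-Co3 0.813 ± 0.584 CPM. These 5 genes have near-identical nuclear copies, their reads could be split or dropped in counting, and their levels are uncertain. mt-Atp8 overlaps mt-Atp6, so its level is uncertain as well. Among regulators of mitochondrial number Gabpa averaged 14.2 ± 3.29 CPM per kilobase, Tfam, which packs mitochondrial DNA, 7.21 ± 2.01, Esrra 6.77 ± 1.76, Polg, the mitochondrial DNA polymerase, 5.79 ± 1.09, Tfb2m, a transcription factor of mitochondria, 5.16 ± 3.42 and Polrmt, their RNA polymerase, 5.14 ± 1.12. Ppargc1a, the coactivator PGC-1α, was counted in WT replicate 1 only, at 3.39, 0, 0 and 0 CPM, and Ppargc1b had 0 counts in all 4 libraries.

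Capillaries of the lung take up fatty acids, and the 15 genes of lipid uptake had a median of 15.3 CPM per kilobase, with 2 far above the rest. Cd36, the fatty acid translocase, was at 2389, 2723, 2315 and 2769 CPM, and with Gpihbp1 it led the list at 710.1 ± 64.2 CPM per kilobase. Pnpla2, a triglyceride lipase, averaged 45.1 ± 2.16 CPM per kilobase and Acsl5, which activates fatty acids, 39.4 ± 10.4. Fabp4, a fatty acid carrier of capillaries, had the highest CV, 78.5%, of the 14 members averaging 5 CPM or more. It was at 26.6, 39.2, 150.0 and 182 CPM, low in WT replicates 1 and 2 and high in 3 and 4. Its relative Fabp5 was at 100.4, 35.8, 65.9 and 84.5 CPM, lowest in WT replicate 2, and lay above Fabp4 in 2 of 4 libraries per kilobase. Lpl, lipoprotein lipase, was at 87.5, 212, 161 and 231 CPM, and Pparg was counted in WT replicate 4 only, at 0, 0, 0 and 1.44 CPM. For oxidation Cpt1a, the gate to mitochondria, was at 241, 305, 236 and 293 CPM, a CV of 13.1%. Cpt1b, the muscle form, was at 2.88, 0, 6.67 and 0 CPM. Cpt1c, the brain form, was at 5.25, 1.91, 0 and 1.44 CPM. Cpt1a thus made up 96.8 ± 2.86% of this family's signal per kilobase. The list of 19 oxidation genes had a median of 13.3 CPM per kilobase, with Acaa2 at 70.3 ± 13.8, Acadl at 66.7 ± 6.22, Etfb at 50.5 ± 11.1, Etfa at 32.1 ± 3.13 and Hadh at 19.8 ± 1.26. Acaa2 and Hadh act late in each round, Acadl is a first dehydrogenase, and Etfa and Etfb carry its electrons.

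Glul, glutamine synthetase, was at 562, 454, 417 and 559 CPM and was the highest of the glutamine and aspartate genes per kilobase at 149.9 ± 22.1. Glud1, glutamate dehydrogenase, followed at 64.9 ± 5.16. Got2, the mitochondrial aspartate transaminase, averaged 13.99 ± 1.41, Asns, asparagine synthetase, 8.69 ± 3.76 and Slc1a5, a glutamine carrier, 6.39 ± 1.55. Gls2, the liver-type glutaminase, had 0 counts in all 4 libraries. Genes of serine synthesis and folate metabolism were low, with a median of 1.87 CPM per kilobase over 11 genes, and 5 of the 8 with a mean of at least 5 CPM had a CV over 50%, against 22.6% of all genes of that level. The 8 averaged under 40 CPM, and the median CV of all genes from 5 up to 20 CPM was already 55.1%. Mthfd1, the cytosolic folate enzyme, was at 64.8, 20.8, 6.52 and 48.5 CPM, and Psat1, of serine synthesis, at 35.98, 15.9, 0.152 and 28.9 CPM, with both lowest in WT replicate 3. Phgdh, the first enzyme of serine synthesis, was at 1.86, 1.304, 5.304 and 8.12 CPM, Mthfd2, the mitochondrial folate enzyme, at 4.32, 4.09, 5.61 and 5.08 CPM, and Shmt2, which splits serine in mitochondria, averaged 10.97 ± 2.43 CPM per kilobase. Tyms, of thymidine synthesis, averaged 2.58 ± 0.634, and Mthfd1l, a mitochondrial folate enzyme, 1.87 ± 1.64.

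Genes against reactive oxygen were led by Txn1, thioredoxin, at 264 ± 35.8 CPM per kilobase. Gpx4, which removes lipid peroxides, averaged 88.7 ± 19.6, Prdx1, a peroxiredoxin, 81.3 ± 13.8, Gpx1 70.97 ± 8.89 and Prdx2 69.4 ± 19.5. Cat, catalase, was at 211, 130.1, 95.9 and 186 CPM, highest in WT replicate 1 and lowest in WT replicate 3. Sod1, the cytosolic superoxide dismutase, averaged 60.1 ± 8.21 CPM per kilobase and Sod2, the mitochondrial one, 5.31 ± 1.77. Cholesterol genes were led by Scarb1, a receptor for HDL, at 295, 531, 258 and 397 CPM, high in WT replicate 2, whereas 7 of the 15 cholesterol genes were highest in WT replicate 1 and lowest in WT replicate 2, against 8.44% of all 10672 genes. Hmgcs1 averaged 21.2 ± 6.14 CPM per kilobase, Srebf1 and Srebf2, the factors that drive lipid synthesis, 16.5 ± 4.697 and 15.5 ± 5.05, and Idi1, of the mevalonate route, 12.5 ± 3.76. The alveolar type 2 markers had the same order of libraries, and their part in these genes was not tested. Enzymes that modify foreign compounds were high for a few genes. Hpgd, which breaks down prostaglandins, averaged 946 ± 121 CPM per kilobase, Cyp4b1 184 ± 28.8, and Aldh2, an aldehyde dehydrogenase, 143 ± 10.6. Gstm1, a glutathione transferase, averaged 95.2 ± 8.85 and Por, which supplies electrons to cytochromes P450, 29.1 ± 5.59. Of the flavin monooxygenases Fmo1 was at 711, 625, 676 and 752 CPM and Fmo2 at 105, 139, 156 and 214 CPM, with Fmo2 lowest in WT replicate 1 and highest in WT replicate 4. Fmo1 was 77.7 ± 4.25% of this family's signal per kilobase, and Fmo5 averaged 4.27 ± 1.95.

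Among the genes for hypoxia-inducible α subunits, Epas1, which encodes HIF-2α, had the highest transcript level per kilobase. Epas1 averaged 785 ± 196 CPM per kilobase, Hif1a, the other hypoxia-inducible α subunit, 18.2 ± 2.48, and Hif3a was counted in WT replicate 4 only. Epas1 was 43.2 times Hif1a per kilobase, and in single libraries 30.2 to 60.1 times. The ratio was highest in WT replicate 2, where Epas1 peaked at 5932 CPM. HIF proteins are set mainly by their breakdown, so transcripts do not give their activity. Of the prolyl hydroxylases that mark them for breakdown, Egln1 was at 86.8, 62.6, 92.4 and 101 CPM, Egln2 at 66.4, 79.7, 30.2 and 74.98 CPM and Egln3 at 0, 2.52, 0 and 5.67 CPM. Egln1 and Egln2 did not differ beyond their spread per kilobase, with means of 23.8 ± 4.55 and 22.4 ± 8.02, and their order turned round when lengths were taken from the longest transcript, to a ratio of 0.799. Vhl, which binds marked HIF proteins, averaged 18.96 ± 5.77 CPM per kilobase and Arnt, the shared β subunit, 12.98 ± 3.24.

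Of 20 S phase genes 19 reached 1 CPM in every library, as did 20 of 20 mitosis genes. Their medians were 6.14 CPM per kilobase for S phase and 6.67 for mitosis, a little under the 8.59 of all expressed genes. Mki67, which encodes the antigen Ki-67 of dividing cells, was at 68.4, 194, 102 and 90.2 CPM, and Top2a, the topoisomerase of mitosis, at 70.3, 123, 96.1 and 79.3 CPM. Both were highest in WT replicate 2, as was the summed list of 20 mitosis genes, at 564, 938, 602 and 659 CPM. The 20 S phase genes summed to 742, 842, 764 and 691 CPM. Pcna, the clamp of DNA polymerase, averaged 47.2 ± 9.97 CPM per kilobase and Mcm3, of the replicative helicase, 20.98 ± 6.96. Its partners Mcm6, Mcm7 and Mcm5 averaged 14.9 ± 2.97, 12.8 ± 4.14 and 12.7 ± 4.95, and Rrm2, which makes the DNA building blocks, 13.1 ± 1.76. Cdc20, a trigger of anaphase, averaged 20.7 ± 6.63 CPM per kilobase. The mitotic cyclins Ccnb2 and Ccna2 averaged 12.8 ± 8.68 and 10.9 ± 3.14, and the checkpoint kinase Bub1b 10.1 ± 3.34. Of the brakes on division Btg2 averaged 101 ± 10.99 CPM per kilobase, Btg1 33.2 ± 6.02, Cdkn1c 32.3 ± 8.37, Cdkn1b 27.9 ± 8.19, Cdkn2d 22.1 ± 5.78 and Cdkn1a, the target of p53, 21.5 ± 11.6. Cdkn1a was at 38.3, 133, 56.5 and 77.1 CPM, and Cdkn2a had 0 counts in all 4 libraries.

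Immediate early genes, which cells switch on within minutes of a stimulus, tissue dissociation included, were high in all 4 libraries. Jun was at 1260.0, 1165, 1224 and 1088 CPM, Fos at 571, 493, 293 and 279.9 CPM and Egr1 at 750.1, 714, 578 and 462 CPM. Jun hardly differed, but Fos and Egr1 were higher in WT replicates 1 and 2 than in 3 and 4. The same order held for Nr4a1, a nuclear receptor, at 174, 182, 85.5 and 47.6 CPM, and Socs3, a brake on cytokine signals, at 468, 616, 274 and 275 CPM. Atf3, a stress factor, was at 117, 139, 8.79 and 62.97 CPM, lowest in WT replicate 3. Per kilobase Jun averaged 371 ± 23.6, Ier2 349.5 ± 49.3, Junb 209 ± 52.1, Jund 184 ± 24.2, Fos 174 ± 61.8 and Ier3 171 ± 41.6. The heat shock genes Hspa1a and Hspa1b, near-identical copies whose reads may be shared, averaged 2.12 ± 1.94 and 1.1004 ± 0.518. The list of 20 summed to 6884, 6831, 5434 and 4836 CPM. Time from dissection to lysis is not given in the sources used here.

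RNA of other lung cells was found in all 4 WT libraries and differed between them more than endothelial markers did. Across 10 markers of alveolar type 2 cells, the surfactant-making epithelium, the summed level was 23327, 4063, 9854 and 17880.0 CPM, which is 2.31%, 0.403%, 1.01% and 1.77% of all counts. WT replicate 1 held the most and WT replicate 2 the least, a range of 5.74 times, and all 10 markers had a CV over 50%, against 22.6% of all genes averaging 5 CPM or more. Sftpb, surfactant protein B, was at 2063, 344, 797 and 1562 CPM, Sftpa1, surfactant protein A, at 1750.0, 356, 744 and 1357 CPM and Slc34a2, a phosphate carrier, at 1374, 292, 631 and 1015 CPM. Cxcl15, a chemokine of lung epithelium, was at 994, 215, 465 and 699.8 CPM and Sftpd, surfactant protein D, at 379, 62.7, 168 and 325 CPM, again with WT replicate 2 lowest. Of the 10 markers 8 were highest in WT replicate 1 and lowest in WT replicate 2, against 8.44% of all 10672 genes. That order was read from these same markers, so the count describes them and tests nothing. The ratio of Sftpc to Sftpb was 7.52, 7.19, 8.25 and 7.65, a CV of 5.78%, and that of Sftpc to Sftpa1 was 8.86, 6.95, 8.84 and 8.81, a CV of 11.3% with WT replicate 2 lower, while the ratio of Sftpc to Cdh5 had a CV of 67.1%. The proportion between these surfactant genes thus varied less than that of Sftpc to Cdh5.

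Alveolar type 1 cells, the thin lining, left less RNA. Ager, their receptor RAGE, was at 357, 60.2, 162 and 312 CPM, and Cldn18, a claudin of alveolar epithelium, at 255, 34.5, 67.1 and 180.4 CPM, in the same order of libraries. The ratio of Sftpc to Ager had a CV of 5.18%. Hopx, another marker of the list, did not follow this order, at 97.2, 93.5, 92.6 and 75.7 CPM. Aqp5, a water channel, averaged 10.3 ± 6.57 CPM per kilobase and Lmo7 4.71 ± 1.401. Airway epithelium gave Scgb1a1, the club cell secretoglobin, at 323, 81.7, 332 and 298 CPM, with WT replicate 2 low and the other 3 alike, and the ratio of Sftpc to Scgb1a1 had a CV of 35.3%. The ciliated cell markers Ccdc113 and Dynlrb2 had 0 counts in all 4 libraries, and Foxj1 was at 0.254, 0, 0 and 9.902 CPM. Tppp3, which binds tubulin, averaged 44.3 ± 19.1 CPM per kilobase, Scgb3a2 and Scgb3a1, further secretoglobins, 26.2 ± 20.02 and 13.1 ± 11.8, Sec14l3 15.8 ± 11.4 and Rsph1 1.58 ± 1.84. Epcam, the general epithelial surface protein, was at 30.5, 4.87, 42.6 and 23.9 CPM and Cdh1, E-cadherin, at 93.7, 10.5, 55.9 and 78.96 CPM. The keratins Krt18, Krt8 and Krt19 averaged 14.1 ± 7.64, 10.4 ± 8.03 and 7.66 ± 5.31 CPM per kilobase, and Nkx2-1, the factor of lung epithelium, 13.6 ± 7.01. Of 6 general epithelial markers 6 had a CV over 50%, against 22.6% of all genes averaging 5 CPM or more, and their sum was 290.1, 53.6, 176 and 195 CPM.

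Mesenchymal cells were represented too. Col1a1 and Col3a1, the fibrillar collagens of fibroblasts, were present: Col1a1 was at 175, 30.6, 220.0 and 284 CPM and Col3a1 at 457, 147, 441 and 667 CPM. Pdgfra, a receptor of fibroblasts, was at 11.6, 7.303, 35.004 and 27.1 CPM. Here WT replicate 4 was the highest for both collagens and WT replicate 2 again the lowest, and the ratio of Sftpc to Col1a1 had a CV of 47.6%. Mfap4 and Npnt, listed with fibroblasts, were instead even: Mfap4 was at 161, 127, 133 and 154 CPM and Npnt at 120.2, 114, 110.5 and 107 CPM. Col1a2 averaged 19.2 ± 9.76 CPM per kilobase and Dpt 14.2 ± 3.61. Of pericyte genes Pdgfrb was at 67.9, 7.48, 82.9 and 109 CPM and Postn, periostin, at 167, 20.3, 135 and 146 CPM. Cspg4, the pericyte proteoglycan NG2, was at 5.93, 3.304, 0 and 3.64 CPM. Kcnj8 and Higd1b, also pericyte markers, averaged 2.11 ± 1.598 and 1.42 ± 2.85 CPM per kilobase. Acta2, smooth muscle actin, was at 107, 6.43, 54.2 and 107 CPM and Myh11, smooth muscle myosin, at 34.03, 12.5, 57.1 and 55.4 CPM. Tagln averaged 21.7 ± 14.4 CPM per kilobase, Actg2 6.84 ± 7.91, Des, desmin, 6.18 ± 2.28 and Cnn1, calponin, 1.41 ± 1.17. The summed levels were 1240.5, 539.9, 1299 and 1674 CPM for 12 fibroblast markers, 376, 62.2, 271 and 430.1 CPM for 10 pericyte markers and 277, 37.6, 196 and 247 CPM for 6 smooth muscle markers. WT replicate 2 was the lowest library in each. Mesothelial markers summed to 29.9, 9.82, 7.73 and 11.8 CPM. Of these Msln averaged 7.74 CPM, Upk3b 5.13 and Lrrn4 1.93, and Wt1 had 0 counts.

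Blood cells, some of which bear CD31, left little RNA. Ptprc, the leukocyte antigen CD45, was at 0, 0, 6.21 and 3.22 CPM, and the 6 general leukocyte markers summed to 20.1, 3.04, 74.4 and 27.9 CPM, highest in WT replicate 3. Of these Coro1a averaged 15.9 ± 18.2 CPM, Laptm5 7.78 ± 5.53, Tyrobp 3.73 ± 6.09, Fcer1g 0.995 ± 1.15 and Cd52 0.635 ± 1.27. Of 13 macrophage and monocyte markers Adgre1, C1qb, C1qc, Chil3 and Ear2 had 0 counts in all 4 libraries, and Csf1r, the macrophage growth factor receptor, was at 2.201, 3.04, 1.21 and 1.61 CPM. Cd68 averaged 2.41 ± 2.95 CPM, Ly6c2 3.28 ± 2.55 and C1qa 0.456 ± 0.913. Lyz2, lysozyme, which macrophages and alveolar type 2 cells both make, was at 2024, 411, 897 and 1489.7 CPM, and the ratio of Sftpc to Lyz2 had a CV of 12.02%. Lyz2 made up most of the list's sum of 2062, 471, 940.3 and 1524 CPM, in the order of libraries seen for surfactant genes. Mrc1, the mannose receptor, which lung endothelium can also express, was at 30.8, 43.8, 41.97 and 22.7 CPM. Among 8 neutrophil markers 6 had 0 counts in every library (S100a8, S100a9, Retnlg, Ly6g, Cxcr2 and Ngp), and Csf3r had 1 count in all. Of 9 T and NK cell markers 7 had 0 counts (Cd3d, Cd3e, Cd3g, Cd4, Cd8a, Nkg7 and Klrb1c). B cell markers summed to 17.9, 0.869, 31.4 and 11.002 CPM, with Cd79a at 1.78, 0.869, 13.5 and 6.601, and Cd79b averaged 4.56, Ms4a1 1.57 and Pax5 0.698 CPM. Of 6 mast cell and basophil markers 5 had 0 counts (Mcpt8, Ms4a2, Fcer1a, Mcpt4 and Tpsb2). For platelets, which carry CD31, Pf4, platelet factor 4, was at 1.1004, 0, 0 and 0.762 CPM, Itga2b, integrin αIIb, at 26.7, 9.13, 2.58 and 14.5 CPM and the list at 35.6, 11.8, 6.06 and 20.1 CPM. Ppbp averaged 2.75 CPM, Gp9 1.57 and Gp1ba 0.423, and Treml1 had 0 counts. For red cells Hbb-bs, a β-globin gene, was at 38.1, 11.4, 48.5 and 31.1 CPM, and the near-identical α-globin genes Hba-a1 and Hba-a2 averaged 9.35 and 5.21, Hbb-bt 1.49, Alas2 1.14 and Slc4a1 0.804 CPM. Nerve and glia markers summed to 4.91, 0, 0 and 6.09 CPM, and Calca and Resp18 had 0 counts. Counting each gene once, the 131 markers of other cells summed to 29177, 5713, 13845 and 23245 CPM, and 31 of them had 0 counts in all 4 libraries. The shares were 2.89%, 0.566%, 1.43% and 2.30% of all counts, beside 1.15%, 1.29%, 1.30% and 1.18% for the 6 endothelial identity markers. These shares count marker genes only and are not shares of cells.

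**Figure D4:**
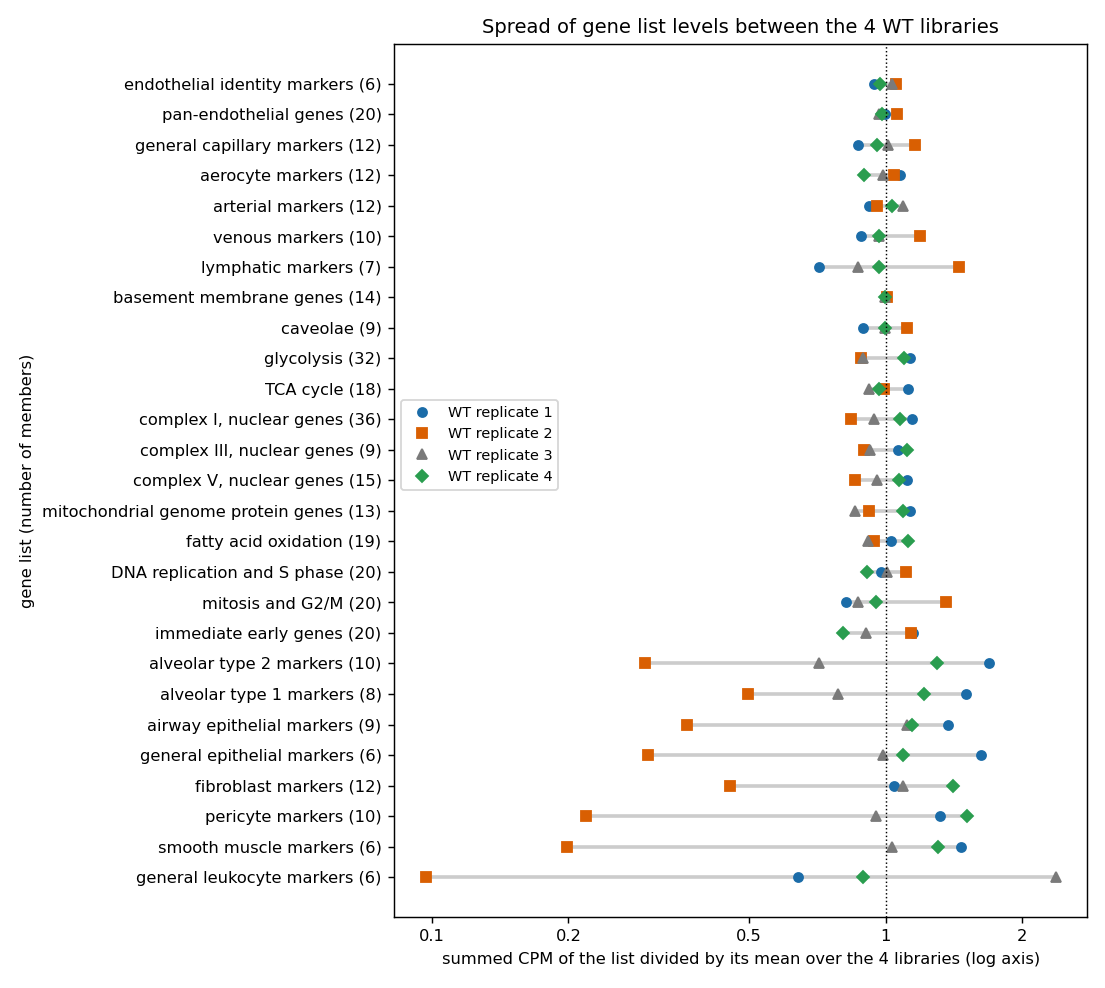
Summed CPM of each of 27 gene lists in each WT library, divided by the mean of the list over the 4 libraries, on a log axis, with the number of members in brackets and the range as a grey line. Apart from lymphatic markers, the endothelial and metabolic lists plotted have CVs from 0.455% (basement membrane) to 13.7% (complex I), lymphatic and mitosis lists reach higher in WT replicate 2, and epithelial, mesenchymal and general leukocyte lists spread widely with WT replicate 2 low.

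Over all genes the spread between the 4 libraries was larger than counting gives. The median CV of the 10672 genes with a mean of at least 5 CPM was 29.3%, against 5.21% from counting alone, and the common biological coefficient of variation estimated by edgeR was 49.8%. The CV fell with level: its median was 55.1% for 3222 genes from 5 up to 20 CPM, 27.6% for 5211 genes from 20 up to 100 CPM, 15.6% for 2151 genes from 100 up to 1000 CPM and 11.2% for 88 genes above. Among metabolic lists the sums of oxygen sensing and of serine and one-carbon genes had CVs of 22.2% and 39.997%. The identity markers, with CVs from 2.88% to 14.1%, lay near or below the median of their level, and alveolar type 2 markers, from 52.1% to 70.1%, far above it. Of the 10672 genes 639, or 5.99%, had 0 counts in at least 1 library: 56 in WT replicate 1, 154 in replicate 2, 377 in replicate 3 and 86 in replicate 4. Most of these, 619, had a mean under 20 CPM, and the library with the most was the shallowest.

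Named protein-coding genes with a mean of at least 20 CPM were ranked by CV. Highest was Ddx3y of the Y chromosome, described below. Next were Retnla, a resistin-like secreted protein, at 50.03, 0, 3.49 and 30.6 CPM, and S100g, a calcium-binding protein, at 44.8, 4.09, 0 and 31.7 CPM. Both were high in WT replicates 1 and 4, as was Lamb3, a laminin chain of epithelium, at 85.6, 14.95, 8.49 and 39.4 CPM. Lama2, a laminin of muscle and mesenchyme, at 14.3, 0, 19.1 and 53.4 CPM, and Notch3 peaked in WT replicate 4, and Aspn, asporin, at 19.7, 3.22, 63.2 and 87.5 CPM, in WT replicates 3 and 4. A further group was high in WT replicate 3 alone: Rd3 at 4.49, 18.3, 54.6 and 10.4, S100a6 at 19.3, 16.2, 53.6 and 0, Bhlhb9 at 12.5, 10.8, 56.7 and 14.9, Nudt7 at 15.4, 9.56, 63.8 and 23.7 and Zfp870 at 5.84, 19.4, 48.3 and 12.9 CPM. Dkk3 was at 30.8, 1.22, 10.2 and 40.03, Aldh1a7 at 44.9, 7.65, 4.85 and 29.5 and Sord, sorbitol dehydrogenase, at 31.7, 17.9, 3.94 and 62.8 CPM. The lowest CVs were those of 10 genes. Ddx6, an RNA helicase, was at 363, 358, 366 and 364 CPM, a CV of 0.965%, and Skil, a repressor of TGF-β signals, at 147, 146, 147 and 150.1 CPM. Raly, Serbp1, Cenpb, Ss18, Arpc3, Trappc13 and Atp6v1f had CVs from 1.24% to 1.89%, and Wwtr1, the Hippo pathway coactivator TAZ, 1.94%. From counting alone the median CV was 2.45% for genes from 100 up to 1000 CPM and 4.85% from 20 up to 100 CPM. Ddx6 lay below the value for its level, as did Atp6v1f at a mean of 62.4 CPM. The 10 genes were picked for a low CV over 4 libraries, so their CVs do not show that they are invariant.

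Genes of the sex chromosomes split the libraries. Ddx3y was at 85.5, 0, 0.152 and 80.7 CPM, Uty at 32.3, 0.348, 0 and 31.99, Eif2s3y at 19.98, 0, 0 and 31.4 and Kdm5d at 17.4, 0, 3.33 and 9.99 CPM. Xist, the RNA of the silenced X chromosome, was at 0, 271, 175 and 9.06 CPM. WT replicates 1 and 4 thus held Y-linked transcripts, and WT replicates 2 and 3 held Xist with almost none of them, so the 4 libraries came from more than 1 mouse. WT replicate 4 also held some Xist. The sex of the mice is not in the labels, and any gene that differs between WT replicates 1 and 4 on one side and 2 and 3 on the other cannot be told apart from it.

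**Figure D5:**
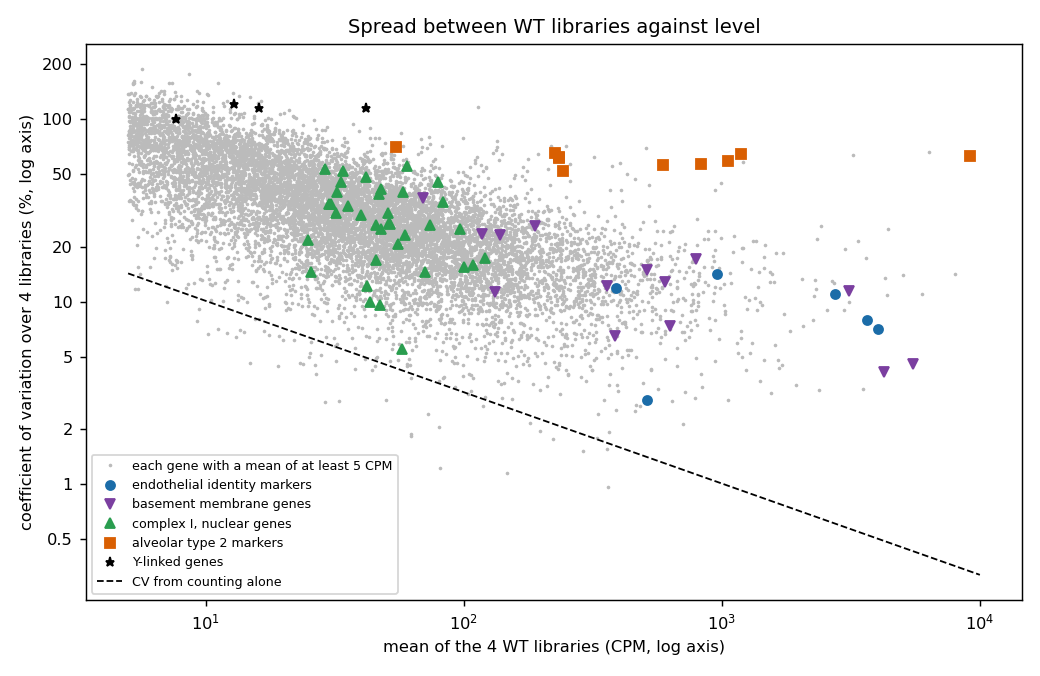
CV over the 4 WT libraries (%, log axis) against the mean level (CPM, log axis) for 10672 genes (grey points), with 5 gene lists in colour and the CV that counting alone gives (dashed line). Identity markers lie near or below the median of their level, basement membrane genes on both sides of it, and alveolar type 2 markers (orange squares) and Y-linked genes (stars) lie above most genes of their level.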

How the data were processed

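RNA was sequenced from CD31-sorted lung cells of 4 WT and 4 deletion samples, and the 4 WT columns of the table of 8 value columns were used. Every column named its sample (0 without one). The deposited values are raw counts of reads per gene. The tools named, with no role or order, are bcl2fastq, TopHat, HTSeq and edgeR, and the build is mm10, per the submitters' processing notes. For versions, annotation release and strand setting the sources used here give nothing, so values of overlapping or antisense genes and of near-identical copies are uncertain. Of 43430 gene IDs 42462 were matched to symbols in GENCODE vM21 (GRCm38), and IDs without one took 0.0819% to 0.1005% of counts. Counts were scaled to CPM with TMM factors over the 4 WT libraries (edgeR 4.0.16, R 4.3.3), and divided by the union of annotated exons for levels per kilobase. Python 3.11.15, pandas 2.3.3 and numpy 2.4.6 gave the rest, and the scripts were tested on simulated data. Spread was described for genes averaging 5 CPM or more, and detection meant 1 CPM in every library. A floor of 3 counts was 0.254 to 0.455 CPM. Reads carry no molecular identifiers, so floors cover counting error only. With 1 condition there was no contrast between groups and no test of one, Dixon's test for a library apart from the other 3 was the only test, and the deletion libraries were left out because only the WT baseline is described. Genes were named by rule: the 6 markers, the 25 highest by CPM and 10 by CPM per kilobase, members of 27 sets of related genes, the 6 highest per kilobase and those under 0.1 CPM of each list described, the 15 most and 10 least variable protein-coding genes at 20 CPM or more, Y-linked genes and genes with a library apart. Others were named for their known role or spread after their values were seen. The members and lists were chosen with earlier results of these data known. Alternatives changed the scaling, filters, depth, exon length and the libraries kept. Depth was 6407924 to 11951816 counts per library. Promoter sequences are from RefSeq (GRCm38.p6). Some genes that this rule names are not reported here.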

Additional observations from a re-analysis of the deposited data

Results flagged for a closer look

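For 4 genes 1 library stood apart from the other 3 of the WT group, by the gap to the nearest library as a share of the whole range (Dixon's test at the 95% level). Vwf, the clotting protein of endothelial granules, was at 4530 CPM in WT replicate 2 and at 3152 to 3375 CPM in the others, a share of 0.838. Ramp3, the lesser partner of the adrenomedullin receptor, was at 17.7 CPM in WT replicate 1 and at 37.6 to 37.9 CPM in the others, a share of 0.982. Col4a1, the chain of collagen IV, was at 5127 CPM in WT replicate 4 and at 5590 to 5649 CPM in the others, a share of 0.886, which is a small difference in level. Pdk3, a pyruvate dehydrogenase kinase, was at 2.46 CPM in WT replicate 1 and at 11.9 to 13.8 CPM in the others, a share of 0.834. These are 4 of 80 genes checked, and chance marks about 1 in 20. Of the 10672 genes with a mean of at least 5 CPM 5.29% had a library this far apart. Of 54 summed gene lists 0 did. Left out of the 58 lists were, among others, neutrophil markers and mast cell and basophil markers, with shares of 0.932 and 1. Their sums averaged only 0.339 and 0.381 CPM.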

How the results depend on the processing

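Of 169 values, 25 ratios of genes per kilobase were recomputed with the longest transcript alone. The other 144 were recomputed, each where the setting applies, with library totals, RLE or upper quartile factors, without mitochondrial and haemoglobin genes, with libraries thinned to the smallest, with other thresholds, and without each library in turn. Measures of overall spread moved with the low value filter, which sets how many low genes are counted. The median CV was 23.1% at a mean of at least 20 CPM and 46.7% with no filter, against 29.3%, and 25.4% to 28.7% without 1 library. Genes with a CV over 50% numbered 565 at 20 CPM and 7715 with no filter, against 2409, and 1945 to 2479 without 1 library. The common biological coefficient of variation was 31.3% at 20 CPM and 103.8% with no filter, against 49.8%, and 43.8% to 52.4% without 1 library, lowest without WT replicate 3. Genes at 1 CPM in every library numbered 10320 to 10967 without 1 library. Per kilobase, Egln1 stood to Egln2 as 1.062 to 1 with lengths from all exons and as 0.799 to 1 with the longest transcript, a choice made after seeing the data. Of values for single lists, genes and ratios, 633 recomputations moved by less than the spread. Another 14 were counted as moved, 12 of these ratios with the other length. Among these ratios, Eno1 to Eno3 and Cox6a1 to Cox6a2 had no spread between libraries to compare with. The rest were the basement membrane sum at 17331 CPM and Ednrb at 529.5 CPM, both without mitochondrial and haemoglobin genes. Without 1 library 1 more moved, the basement membrane sum, to 16677 CPM without WT replicate 3. No paired analysis was possible because only 1 group is described and no result compares groups. Depth limits low genes: in the shallowest library 3 counts are 0.455 CPM.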

Other observations

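Beyond the marker lists, 56 genes with a mean of at least 20 CPM ran at least 4-fold from highest in WT replicate 1 to lowest in WT replicate 2, the order of the surfactant genes, with no library at 0. Of these 8 were in the alveolar type 2 list, from which the order was taken. The others were chosen after their values were seen. Scd1, which desaturates fatty acids, was at 682, 164, 273 and 494 CPM, and Fasn, fatty acid synthase, at 443, 94.2, 208 and 285 CPM. Hc, complement component 5, was at 550.5, 76.9, 278 and 371 CPM, and Chil1, a chitinase-like protein, at 462, 73.6, 135 and 325 CPM. Cbr2, a carbonyl reductase of lung, was at 576, 95.1, 352 and 481 CPM. Cd74, which guides antigen-presenting MHC class II proteins, was at 394, 62.3, 116 and 296 CPM. For all 6 genes WT replicate 4 stood above WT replicate 3, as for Sftpc. The part of epithelial or leukocyte RNA in their levels was not tested.

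By library, WT replicate 3 was the one farthest from the mean of the other 3 for 3432 of the 10672 genes, WT replicate 2 for 2920, WT replicate 1 for 2220 and WT replicate 4 for 2100. The depth of WT replicate 3 was the lowest of the 4, and its part in this was not tested.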
